A study of Mus musculus with 2 samples.

Results

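Immunoglobulin constant and variable (V) genes were followed in 2 single-cell RNA libraries of neutrophils sorted from mouse tumors, 1 labelled Smad3-WT and 1 labelled Smad3-KO. The members were all genes whose symbol begins with Ighv, Igkv or Iglv (the V genes of the heavy, kappa and lambda chains), with Ighg or Iglc, or is Ighm, Ighd, Igha, Ighe or Igkc (the remaining constant genes). Of 361 such genes in the count matrix, 189 had at least 1 unique molecular identifier (UMI, a tag that counts 1 captured RNA molecule), among 19114 genes with a UMI in all. In the Smad3-KO library 187 members were detected and in the Smad3-WT library 25, and 23 of them were detected in both. Before any filter the Smad3-KO library held 4214290 UMIs and the Smad3-WT library 23951400. How many of the 19114 genes each library detected was not counted, so the member counts have no share of all genes beside them. No UMI was counted for 172 members.

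Both groups were C57BL/6 mice of 8 to 12 weeks that carried subcutaneous tumors of Lewis lung carcinoma (LLC), a mouse lung cancer cell line. They differed in the germline genotype, Smad3+/+ against Smad3-/-, and in each group the CD11b+Ly6G+ cells of 8 tumors were pooled, sorted and sequenced from the 5′ end as 1 library. With 1 library for each genotype no test between genotypes was possible, and every interval below is an exact 95% interval that covers counting error only. Where a count was 0, the limit or fold given was computed with 3 in its place. Smad3, the targeted gene, had 321 UMIs (77.4 CPM, its UMIs scaled to a common total) in the Smad3-KO and 178 (14.6 CPM) in the Smad3-WT library. It was thus higher in the library labelled Smad3-KO, but as 5′ tags need not lie in the deleted part, this does not check the labels.

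A B cell expresses 1 V segment with the constant region of a heavy chain and 1 V segment with that of a kappa or a lambda light chain. The cells of a B cell clone thus share a pair of V genes, but different clones can have the same pair. A naive B cell makes IgM and IgD from Ighm and Ighd, and after class switching a cell uses an Ighg, Igha or Ighe constant gene with the same V gene. Plasma cells, the antibody-secreting end stage, hold immunoglobulin messenger RNA in great amounts. In most mouse B cells the light chain is kappa.

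Several members are close copies of each other, and the sequences of those on which the results turn show how well their tags can be told apart. They were taken from the GENCODE M21 annotation of the mm10 genome as the first 120 bases of the coding sequence, 5′ to 3′ on the strand of the gene. For the pseudogene Ighv8-10 the first 120 bases of its transcript were used. The first set holds 4 kappa V genes of the Igkv3 family, each of which led a cell with very many immunoglobulin UMIs. Capitals mark bases that differ from Igkv3-12, and Igkv3-7 had 2 such bases, Igkv3-5 had 10 and Igkv3-4 had 11.
Igkv3-12: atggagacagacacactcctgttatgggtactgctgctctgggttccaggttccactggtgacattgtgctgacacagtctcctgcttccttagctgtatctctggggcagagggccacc
Igkv3-7: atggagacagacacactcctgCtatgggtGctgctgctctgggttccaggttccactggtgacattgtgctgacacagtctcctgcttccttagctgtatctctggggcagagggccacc
Igkv3-5: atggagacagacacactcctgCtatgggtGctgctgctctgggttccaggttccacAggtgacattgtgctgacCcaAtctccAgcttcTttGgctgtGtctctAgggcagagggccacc
Igkv3-4: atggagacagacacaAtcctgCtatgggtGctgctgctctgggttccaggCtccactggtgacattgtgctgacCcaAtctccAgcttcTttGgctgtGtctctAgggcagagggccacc

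These genes lie on the plus strand at chr6:70518250-70518849 (Igkv3-12), chr6:70607437-70608036 (Igkv3-7), chr6:70663275-70663895 (Igkv3-5) and chr6:70671788-70672377 (Igkv3-4), upstream of Igkc at chr6:70726435-70726966. Over the whole coding sequence Igkv3-12 shared 96.7% of its bases with Igkv3-7, 89.1% with Igkv3-5 and 90.3% with Igkv3-4, against 65.6% with Igkv6-20, a kappa V gene of another family.

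The second set holds the lambda constant genes, since their UMIs were found in cells whose light chain V genes were kappa. Capitals mark bases that differ from Iglc2 after alignment, 7 in Iglc3 and 28 in Iglc1.
Iglc2: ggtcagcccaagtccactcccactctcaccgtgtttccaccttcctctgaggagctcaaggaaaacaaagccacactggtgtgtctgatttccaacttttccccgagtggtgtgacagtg
Iglc3: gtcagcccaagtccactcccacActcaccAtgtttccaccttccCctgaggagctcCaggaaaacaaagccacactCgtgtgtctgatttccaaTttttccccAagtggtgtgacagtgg
Iglc1: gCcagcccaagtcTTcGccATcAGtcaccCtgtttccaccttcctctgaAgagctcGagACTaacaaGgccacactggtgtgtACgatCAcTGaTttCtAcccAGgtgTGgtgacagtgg

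They lie on the minus strand at chr16:19198396-19200351 (Iglc2), chr16:19065230-19065681 (Iglc3) and chr16:19061618-19062071 (Iglc1). Iglc2 and Iglc3 were identical at 96.2% of their coding bases, so that UMIs between them are uncertain, whereas Iglc2 and Iglc1 were identical at 73.8% and Iglc2 and Igkc at 55.9%. The annotation gives Iglc2 a second, upstream exon of 154 bases at chr16:19200198-19200351, and Iglc3 a single exon.

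The third set sets Ighv8-8, a heavy V gene that recurred in several B cell-like cells, beside Ighv8-10, a pseudogene of the same family whose UMIs fell in neutrophil-like cells. Capitals mark the 12 bases of Ighv8-10 that differ.
Ighv8-8: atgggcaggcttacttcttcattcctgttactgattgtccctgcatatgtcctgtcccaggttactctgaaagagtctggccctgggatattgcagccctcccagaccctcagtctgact
Ighv8-10: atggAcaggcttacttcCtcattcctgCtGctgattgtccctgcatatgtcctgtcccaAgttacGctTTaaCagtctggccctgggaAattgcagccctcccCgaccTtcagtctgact

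Ighv8-8 lies at chr12:115294062-115294504 and Ighv8-10 at chr12:115519340-115519782, both on the minus strand. The coding sequence of Ighv8-8 and the transcript of Ighv8-10 shared 88.3% of their bases.

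The deposited matrix held 2514 Smad3-KO and 4116 Smad3-WT barcodes, of which the study went on with those that expressed neutrophil markers. All classes were kept here, and after the quality filter the Smad3-KO library held 2433 cells with 4146792 UMIs (median 1199 per cell) and the Smad3-WT library 3520 cells with 12176201 UMIs (median 1319 per cell). Cells were clustered without the immunoglobulin genes, and 562 of the Smad3-KO cells (23.1%, 21.4 to 24.8) but 3 of the Smad3-WT cells fell in the cluster that expressed the B cell markers Cd79a, Cd79b, Ms4a1, Ly6d, Pax5 and Fcmr, called B cell-like here. The sort was for CD11b (Itgam) and Ly6G, and Ly6g was detected in 2 of the B cell-like cells and in 10.0% of 1076 neutrophil-like cells, Itgam in 15 and in 21.3%. S100a8, a neutrophil gene, had a UMI in 22.6% of B cell-like cells (91.2% of neutrophil-like and 14.9% of T or NK-like cells), and 94 of the B cell-like cells held at least 3 UMIs of S100a8, S100a9 and Csf3r together. The 2 libraries shared 73 barcode sequences, 24 of them after the filter, and 2 of the 3 Smad3-WT B cell-like cells had such a barcode.

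Immunoglobulin genes held 0.660% of the Smad3-KO UMIs (27374 UMIs, 0.652 to 0.668), in 922 cells. In the Smad3-WT library they held 0.00456% (555 UMIs, 0.00419 to 0.00495), in 311 cells. Kappa V genes made up 49.0% of the immunoglobulin UMIs of the Smad3-KO library, followed by heavy constant genes with 17.1%, Igkc with 16.8%, lambda constant genes with 9.83%, heavy V genes with 6.06% and lambda V genes with 1.30%. In the Smad3-WT library heavy constant genes made up 56.2%, all of it Ighm.

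All kinds of immunoglobulin gene were represented, but not all members. Before the quality filter UMIs came from 84 of 185 heavy V genes, 88 of 160 kappa V genes, all 3 lambda V genes, 7 of 8 heavy constant genes, Igkc and all 4 lambda constant genes in the Smad3-KO library. Ighe, the constant gene of IgE, had no UMI in either library. Of the 130 members annotated as V pseudogenes 13 were detected there, with 51 UMIs in all, against 15381 UMIs of members annotated as V genes. In the unfiltered Smad3-KO library 100 members had at least 10 UMIs, and 39 were detected in a single cell.

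The UMIs were concentrated in very few cells. In the Smad3-KO library 95.7% of the immunoglobulin UMIs (26205 UMIs, 95.5 to 96.0) were in B cell-like cells, and 60.5% (59.9 to 61.1) were in 6 cells, each with at least 1000. The first of them alone held 16.2%. The next cell in rank held 173 UMIs, below the lowest of these 6 with 1289. Without them the library held 10808 immunoglobulin UMIs, 89.2% of which were in B cell-like cells, and the 10 leading cells then held 6.84%. In the remaining B cell-like cells the mean was 17.3 immunoglobulin UMIs and the median 15.

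**Figure D1:**
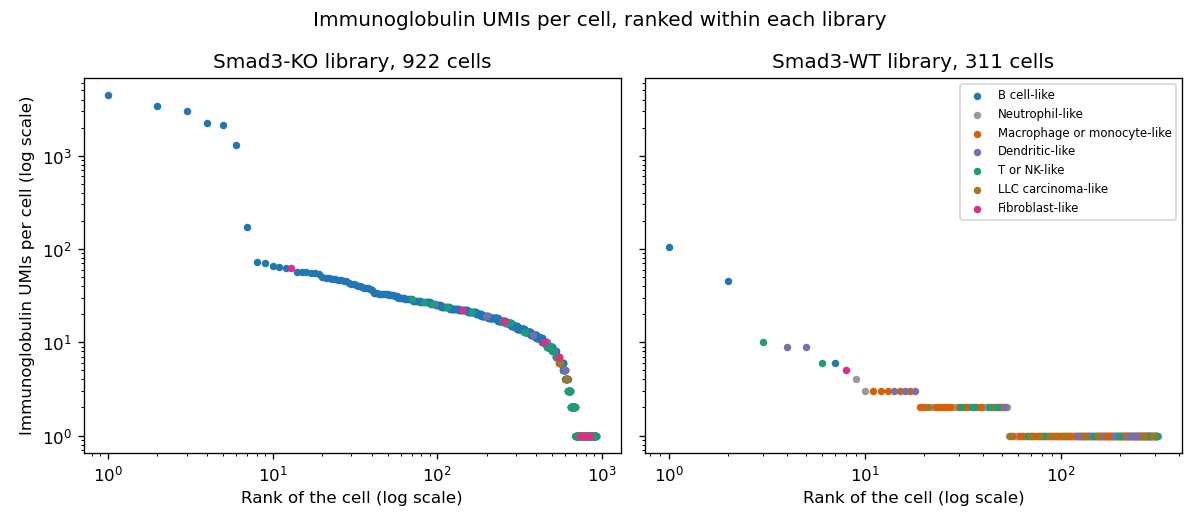
Immunoglobulin UMIs per cell (vertical axis, log scale) against the rank of the cell (horizontal axis, log scale) in the Smad3-KO library (left, 922 cells with a UMI) and the Smad3-WT library (right, 311 cells), 1 point per cell colored by its class. The first 6 Smad3-KO cells lie between 1289 and 4428 UMIs, above a shelf of B cell-like cells that starts at 173.

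Each of the 6 cells was dominated by 1 light V gene, 1 heavy V gene and 1 heavy constant gene. In cell 1 immunoglobulin genes held 53.6% of 8256 UMIs, with 3467 UMIs of Igkv3-12, 278 of Ighv1-72, 295 of Ighg1 and 228 of Igkc, beside 13 of a second heavy V gene, the pseudogene Ighv1-2. Cell 2 held 1052 UMIs of Igkv6-20, 114 of Ighv10-3, 640 of Igha and 1582 of Igkc, 57.6% of its UMIs. Cell 3 held 2243 UMIs of Igkv3-7, 118 of Ighv8-8, 347 of Ighg1 and 284 of Igkc. Among these 3 cells, which had switched to IgG1 or IgA, Ighm and Ighd had no UMI. Cell 4 held 1537 UMIs of Igkv3-5, 116 of Ighv2-2, 275 of Ighm and 206 of Igkc. Cell 5 held 323 UMIs of Igkv3-4, 45 of Ighv1-9, 859 of Igha, 863 of Igkc, 4 of Ighm and 3 of Ighg3. Cell 6 held 635 UMIs of Igkv4-74, 305 of Ighv5-17, 163 of Ighm and 144 of Igkc. Both cells with IgM had no UMI of Ighd, which a naive B cell makes beside Ighm. The cells with Igha, cells 2 and 5, also held UMIs of the neutrophil genes S100a8 (18 and 38) and S100a9 (29 and 72). Both genes were at 0 in the rest of the 6 cells, and the source of these UMIs was not tested.

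**Figure D2:**
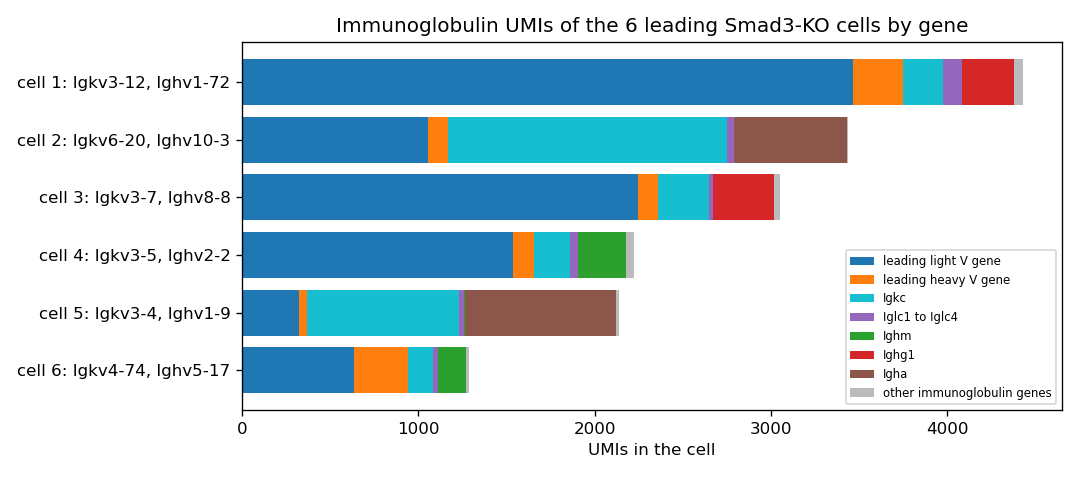
Immunoglobulin UMIs (horizontal axis) of the 6 leading Smad3-KO cells, 1 bar per cell, divided by gene or gene group, with the leading light and heavy V gene of each named on the left. Ighg1 is the main heavy constant gene of cells 1 and 3, Igha of cells 2 and 5 and Ighm of cells 4 and 6.

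The close copies of the Igkv3 family printed above were not mixed within these cells, whereas Iglc2 and Iglc3 both had UMIs in each of the 6. The cell with 3467 UMIs of Igkv3-12 had 0 of Igkv3-7, and the cell with 2243 of Igkv3-7 had 0 of Igkv3-12. In each of the 6 cells the 5 kappa V genes that led the other cells were at 0, and the leading gene held from 96.4% to 99.1% of the light V UMIs. Iglv1, a lambda V gene, had 28, 7, 34, 17, 9 and 16 UMIs in cells 1 to 6, and it came second in each of them but cell 4, where the kappa gene Igkv4-86 had 20. A high immunoglobulin total thus came with low but repeated UMIs of a lambda V gene, whose source was not tested.

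A few genes were carried almost wholly by very few cells. Igha had 99.8% of its UMIs in its 6 leading cells and was detected in 9 cells, and Ighg1 had 89.3% of its UMIs in 6 of 39 cells. For Igkc that share was 72.1% and for heavy V genes 59.7%. IgM and IgD were spread out instead, with 27.6% of Ighm UMIs in the 6 leading of 650 cells and 5.56% of Ighd UMIs in the 6 leading of 360 cells, none of which held more than 7.

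The same cells carried the genes of antibody secretion. Jchain, which links IgM and IgA into polymers, stood at 45625 CPM in the 6 cells and at 112 CPM in the other B cell-like cells, 408-fold higher (333 to 504). Xbp1, the transcription factor that expands the secretory pathway, was 19.7-fold higher (14.0 to 27.7), and Mzb1, a chaperone of immunoglobulin assembly, 14.3-fold (12.2 to 16.8). Tnfrsf17, the plasma cell survival receptor BCMA, had 10 UMIs in the 6 cells and 0 in the others. Jchain had from 268 to 570 UMIs in each of the 6 cells, but the other 3 genes were uneven among them. Cell 4 held 36 of the 74 Xbp1 UMIs, and cells 4 and 6 held 118 and 79 of the 274 Mzb1 UMIs. Tnfrsf17 had no UMI in cells 1 and 3. Genes of B cell identity went the other way, since Cd79a, the signalling subunit of the B cell receptor, was at 337 CPM against 2208 CPM, Ms4a1 (CD20) at 42.1 against 856.9 CPM, and Cd22 and Fcmr had no UMI. Of the 13 antibody-secreting genes listed, 9 had enough UMIs and 8 were at least 2-fold higher, and of the 12 B cell receptor and identity genes none was. Because the 6 cells were picked by their immunoglobulin UMIs, these are descriptions, and among all 5456 genes compared 8.52% were at least 2-fold higher. By the same count 22 of 73 members tested were higher in the 6 cells, of 183 detected in B cell-like cells. The median ratio over all 5456 genes was 0.539, so that genes in general were lower by CPM in the 6 cells. For the 12 identity genes it was 0.130, but Ly6d at 0.435 (0.277 to 0.651) and Blnk at 0.692 (0.295 to 1.39) were near or above the median of all genes.

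The heavy constant genes lie in a row on the minus strand of chromosome 12, Ighm at chr12:113418558-113422730, Ighd at chr12:113406604-113416324, Ighg1 at chr12:113325240-113330523 and Igha at chr12:113254830-113260236. Isotypes were called in cells with at least 2 heavy constant UMIs when 1 class held at least 80% of them. Of 562 B cell-like Smad3-KO cells 377 were called, 346 of them IgM or IgD (91.8%, 88.5 to 94.3), 29 IgG (7.69%, 5.21 to 10.9), 2 IgA and 0 IgE. A further 8 cells were mixed, 128 had too few UMIs and 49 had none. Without the 6 leading cells 344 were IgM or IgD and 27 were IgG (7.28%). At a single UMI, Ighm was seen in 372 cells (66.2%) and Ighd in 324 (57.7%), 218 of them with both, and any Ighg gene in 45 (8.01%). Over all 562 B cell-like cells, called or not, Ighg1 was detected in 35, against 12 for Ighg2b, 5 for Ighg3 and 1 for Ighg2c. The Ighg genes were not counted within the cells called IgG alone. Ighe was seen in 0 of 562 cells, which allows a share of up to 0.534% of cells with a UMI (3 cells of 562).

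Cells called IgG held more UMIs of some genes of the germinal center, where B cells mutate and switch their immunoglobulin genes, than cells called IgM or IgD. Of 8 such genes 4 had enough UMIs, and 3 of the 4 were at least 2-fold higher in the IgG cells, against 12.2% of 4124 genes tested. S1pr2, a receptor that confines B cells to the germinal center, had 16 UMIs in 27 IgG cells (183 CPM, 105 to 297) and 4 in 344 IgM or IgD cells (7.40 CPM, 2.02 to 18.9). Rgs13, a regulator of G protein signalling, had 14 UMIs (160 CPM, 87.5 to 269) against 10 (18.5 CPM, 8.87 to 34.0). The UMIs of each lay in 10 of the 27 IgG cells and in 4 of the 344 others. Basp1, of the same list, was not higher, at 206 CPM (122 to 325) against 192 CPM (157 to 233). Jchain was detected in 16 of 27 and in 9 of 344 cells. Of 7 genes of naive and marginal zone B cells with enough UMIs, 5 were at least 2-fold lower in the IgG cells, against 16.1% of all genes tested, such as Fcer2a, the IgE receptor CD23, with 19 UMIs (217 CPM, 131 to 339) against 261 (483 CPM, 426 to 545), and Klf2, a transcription factor of quiescent lymphocytes, with 12 UMIs (137 CPM, 70.9 to 240) against 262 (484 CPM, 428 to 547). Cr2, a complement receptor from the same list, was at 126 CPM (62.8 to 225) against 144 CPM (114 to 180.0). Ms4a1, a gene of B cells as a whole, was at 1281 CPM in the IgG cells and 795 CPM in the others. The IgG cells were also deeper, with a median of 2760 UMIs against 1232, and CPM scales for that but detection in a cell does not.

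The constant and the V genes of the light chain gave opposite pictures. By V genes 446 of 451 called cells were kappa (98.9%, 97.4 to 99.6) and 5 were lambda. By constant genes 42 of 209 called cells were kappa (20.1%, 14.9 to 26.2) and 167 were lambda, while 305 more were mixed. Igkc was detected in 438 of the 562 cells (77.9%), Iglc2 in 445 (79.2%), Iglc3 in 355 (63.2%) and Iglc1 in 120, and 396 cells (70.5%) had both Igkc and a lambda constant gene. A lambda V gene was seen in 72 cells (12.8%), so that 436 cells had a lambda constant gene with no lambda V gene.

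Cells with at least 2 light V UMIs were also split by which V genes led, with ties of kappa and lambda V UMIs counted as kappa. In 461 cells led by kappa V genes, the 6 leading cells left out, Igkc had 1022 UMIs, Iglc2 1158, Iglc3 585 and Iglc1 188. Igkc thus made up 34.6% (32.9 to 36.3) of the light constant UMIs. In 12 cells led by lambda V genes Igkc had 8 UMIs, Iglc2 33, Iglc1 13 and Iglc3 12, which put Igkc at 12.1% (5.38 to 22.5). Igkc was thus a larger part of the light constant UMIs in kappa V cells, but lambda constant UMIs were the majority in both. Of the 461 cells 308 had more lambda than kappa constant UMIs and 97 had fewer. In the 6 leading cells, all with a kappa V gene, Igkc was ahead, with between 144 and 1582 UMIs against 23 to 109 of all lambda constant genes. In cell 1 it had 228 UMIs against 109. The cell with 1582 UMIs of Igkc had 27 of Iglc2, and the cell with 284 had 11. Among these 6 the highest count of Iglc2, 93, was not in the cell with the highest count of Igkc. The source of the lambda constant UMIs in cells with kappa V genes was not tested.

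**Figure D3:**
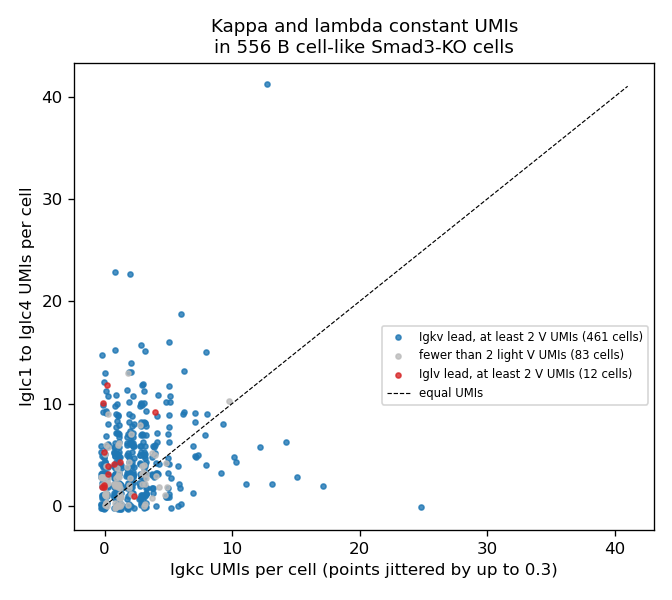
UMIs of Iglc1 to Iglc4 (vertical axis) against UMIs of Igkc (horizontal axis) in the B cell-like Smad3-KO cells other than the 6 leading ones, 1 jittered point per cell, colored by which light V genes led. Of the 461 cells led by kappa V genes, 308 lie above the dashed line of equal UMIs, 56 on it and 97 below it. Cells with equal kappa and lambda V UMIs count as led by kappa V genes.

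V gene use in the B cell-like cells was diverse. A single light V gene with at least 2 UMIs and 80% of the light V UMIs was found in 370 of 562 cells (65.8%, 61.7 to 69.7), and 71 different genes led, an effective number of 37.7 (inverse Simpson index). The most frequent were Igkv10-96 in 24 cells, Igkv1-117 in 23, Igkv6-15 in 19 and Igkv3-7 and Igkv1-110 in 13 each, and 19 genes led 1 cell. A single heavy V gene was found in 129 cells (23.0%), with 49 genes, an effective number of 29.0 and Ighv1-81 first with 12 cells. More than 1 light V gene at 2 or more UMIs was seen in 94 of 465 cells that had one, and more than 1 heavy V gene in 3 of 149. A B cell usually expresses 1 V gene for each chain, and the source of the further light V genes was not tested.

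By UMIs over the unfiltered Smad3-KO library, the V genes fell into those of a single cell and those of many. Ighv5-17 had 318 UMIs, 305 of them in 1 cell, and Ighv1-72 had 304, 278 of them in 1 cell, whereas Ighv1-81 had 55 in 36 cells with at most 4 in one. Among kappa V genes Igkv6-20 had 1147 UMIs with 1052 in 1 cell and Igkv4-74 had 647 with 635 in 1 cell. Spread over more cells were Igkv1-117, with 270 UMIs in 32 cells and at most 20, Igkv6-15, with 223 in 32 cells and at most 20, Igkv12-46, with 190 in 17 cells and at most 32, and Igkv1-110, with 173 in 19 cells and at most 31. Of the lambda V genes Iglv1 had 244 UMIs in 33 cells, Iglv3 had 92 in 57 cells and Iglv2 had 21 in 4 cells, and the Smad3-WT library had none of the 3. A ranking by UMIs thus led with the genes of the 6 cells, while a ranking by the number of cells led by a gene began with Igkv10-96 among light and Ighv1-81 among heavy V genes.

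The families were not used in proportion to their size. Igkv6 led 63 of 370 cells with 9 of 163 light V genes, whereas Igkv4 led 38 cells (10.3%) with 33 genes and Igkv13 led 3 cells. Igkv10 led 28 cells (7.57%) with 1.84% of the genes, and Igkv3 and Igkv1 led 52 and 48 cells. Among heavy V genes Ighv1, the largest family, led 63 of 129 cells (48.8%), close to its 50.3% of the genes, and Ighv5 led 19 cells (14.7%) with 11.9% of the genes. The family sizes include pseudogenes, which hold few UMIs.

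Along the chromosome, cells led by kappa V genes used the whole locus, from 22.8 to 3171 kb away from Igkc. The median distance was 999.8 kb over cells and 1487 kb over kappa V genes, and 212 of 368 cells (57.6%, 52.4 to 62.7) were led by a gene nearer than the median gene. For heavy V genes the median distance from Ighm was 1288 kb over cells and 1226 kb over genes, with 61 of 129 cells (47.3%, 38.4 to 56.3) on the near side. Against the median of all listed genes, use of the heavy locus was even and that of the kappa locus leaned slightly to its near part. The listed genes include pseudogenes, and 72 kappa and 99 heavy V genes had no UMI in either library. Use was not set against the detected genes alone, so the lean may come from where the undetected genes lie.

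**Figure D4:**
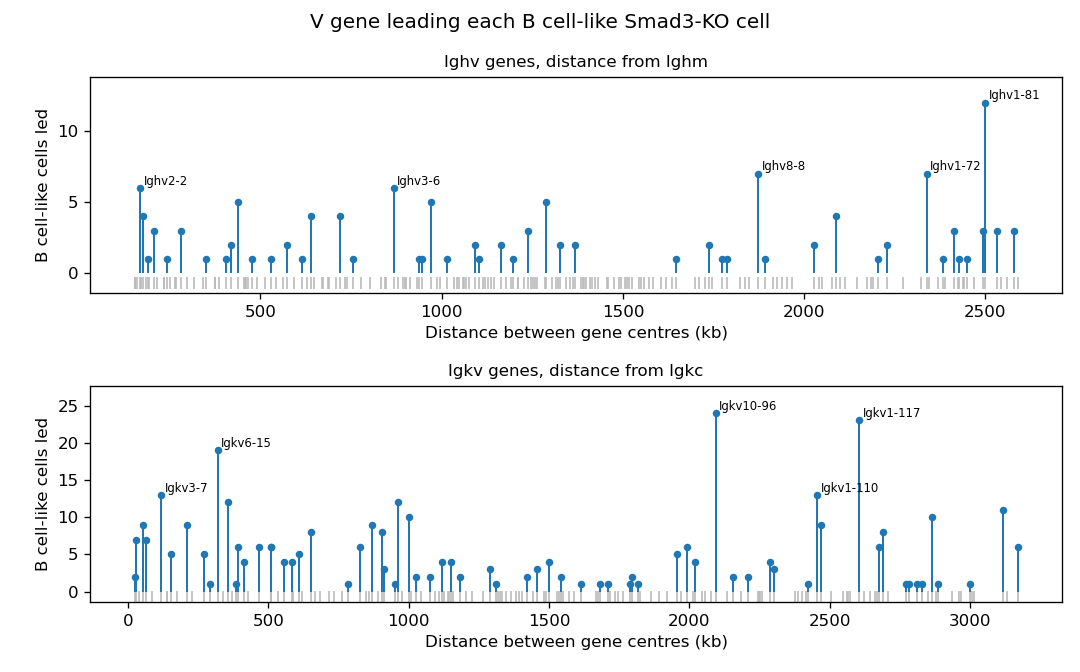
Number of B cell-like Smad3-KO cells led by each V gene (vertical axis) against the distance of the gene from Ighm (top, Ighv genes) or from Igkc (bottom, Igkv genes) in kb, with gray ticks for every listed V gene and the 5 most frequent genes named. Leading genes are spread over both loci, with at most 12 cells for a heavy and 24 for a kappa V gene.

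Most cells with both chains called had a pair of V genes that was not called in another cell. Both chains were called in 87 cells, which held 80 different pairs, and 4 pairs occurred in more than 1 cell. The most frequent was Igkv3-7 with Ighv8-8, the pair of leading cell 3, in 5 cells, and the others, Igkv5-39 with Ighv1-72, Igkv6-15 with Ighv1-81 and Igkv10-96 with Ighv3-6, were in 2 cells each. Igkv3-7 had at least 10 UMIs in 10 cells, all B cell-like. In the 5 of them that also held Ighv8-8, the UMIs of Igkv3-7 and Ighv8-8 were 2243 and 118, 35 and 10, 22 and 9, 23 and 5, and 22 and 3. Ighg1 had 347, 6 and 3 UMIs in the first 3 of these, with 0 of Ighm, and Ighm had 1 and 5 UMIs in the last 2, with 0 of Ighg1. Heavy UMIs per 100 light UMIs were 5.26 in cell 3 and 28.6, 40.9, 21.7 and 13.6 in the others. The values of the others rest on 10, 9, 5 and 3 heavy UMIs, and differences among them were not tested. The constant gene seen differed among cells with the same pair, though in 1 of the 2 cells with Ighm it rests on 1 UMI. Whether these cells share a rearrangement was not tested, since the count table holds no junction sequence.

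The V genes of the 6 leading cells were also seen elsewhere at low counts. Igkv3-12 had 62 UMIs in 12 other B cell-like cells, with at most 10 in one, and 10 UMIs in 10 cells of other classes, with at most 1. The 6 light V genes made up 99.6% of the kappa V UMIs in the 6 cells, 13.3% (12.2 to 14.4) in the other B cell-like cells and 21.1% (16.1 to 26.9) in cells of other classes. Without 1 cell of another class that held 19 UMIs of Igkv3-5, left out after its value was seen, the last share was 14.2% (9.87 to 19.6). The 6 genes pooled then did not stand above the other B cell-like cells, and the genes were not compared singly.

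Outside the B cell-like cells the constant genes did not fall off together. Relative to the level in B cell-like cells without the 6 leading ones, Igkc was at 2.69% (1.96 to 3.61) in neutrophil-like cells, 2.24% in T or NK-like cells and 3.98% in dendritic-like cells, and Cd79a was at 1.73%, 2.65% and 0.750%. Ighm stood higher, at 7.46% (5.97 to 9.24) in neutrophil-like, 23.3% (19.7 to 27.5) in T or NK-like and 30.5% (25.1 to 36.9) in dendritic-like cells. Per 100 UMIs of Ighd there were 150 of Ighm in these B cell-like cells, 362 in neutrophil-like, 880 in T or NK-like and 2480 in dendritic-like cells. These ratios rest on 566, 26, 20 and 5 UMIs of Ighd and were given no interval. As counted, the ratio of the 2 genes was higher in these 3 classes than in the B cell-like cells, with its size in dendritic-like cells the least certain. Across 9967 genes with enough UMIs 17.2% were at least 2-fold higher in the B cell-like cells than in all other Smad3-KO cells. Of 69 members tested 69 were, of 186 detected. Outside the B cell-like cells only Ighm, Igkc, Ighd, Iglc2, Iglc3, Igkv12-41 and Igkv3-5 had at least 20 UMIs. The other tested members reached that limit mainly through B cell-like cells, so their count was largely fixed by the limit and is no separate support.

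**Figure D5:**
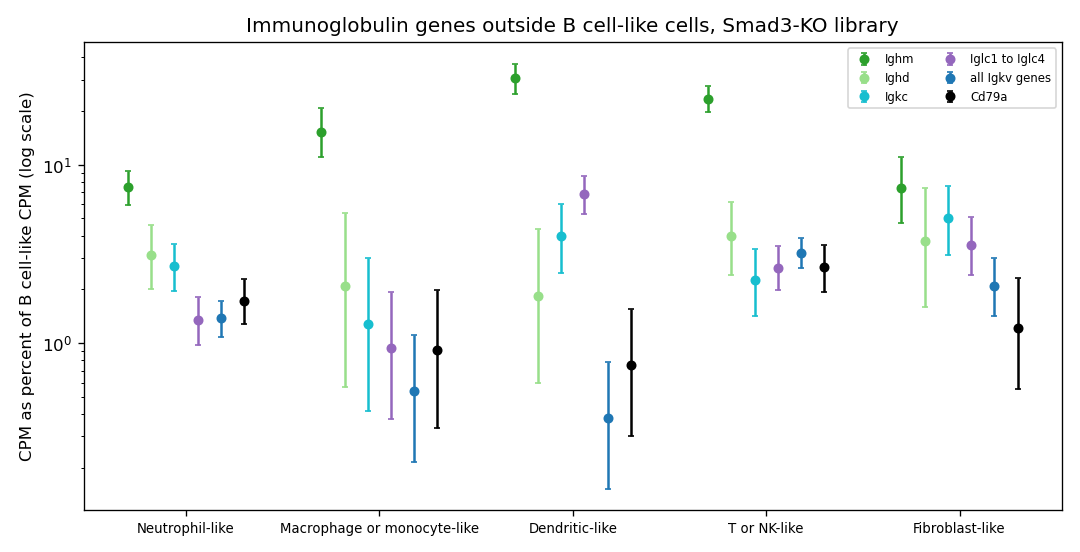
Level of immunoglobulin genes and of Cd79a in 5 classes of the Smad3-KO library as a percent of their CPM in B cell-like cells without the 6 leading ones (vertical axis, log scale), with exact 95% intervals for counting error. Ighm is the highest of the 6 measures in every class, at 30.5% in dendritic-like and 23.3% in T or NK-like cells.

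Igkc and, to a lesser extent, Ighm were found in cells that also held other B cell genes. Of 51 cells outside the B cell-like class with a UMI of Igkc, 39 (76.5%, 62.5 to 87.2) also had Cd79a, Cd79b or Ms4a1, against 42 of 1820 cells (2.31%) without Igkc. Of 278 such cells with Ighm, 51 (18.3%) had one of these genes, against 1.88% of 1593 cells without Ighm. In the 1790 cells with none of them, Igkc was detected in 12 (0.670%), and Ighm in 227 (12.7%, 11.2 to 14.3). For Igkc in neutrophil-like cells, 17 of 1076 had a UMI (1.58%), and 0.465% did after each cell was thinned to 500 UMIs.

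In the Smad3-KO library the level of Ighm outside the B cell-like cells was highest in the dendritic-like and the T or NK-like cells. Ighm was detected in 97 of 420 Smad3-KO cells of the T or NK-like class with a CD3 gene and without Ncr1, Klrb1c or those 3 B cell genes (23.1%, 132 UMIs, 196 CPM), and in 9 of 40 such Smad3-WT cells (22.5%, 13 UMIs, 62.0 CPM). In all T or NK-like cells with no UMI of the 3 B cell genes it was seen in 101 of 443 Smad3-KO cells (22.8%, 19.0 to 27.0) and 13 of 60 Smad3-WT cells (21.7%). These shares were not taken at equal depth, since the CD3 cells had a median of 1343 UMIs in the Smad3-KO and 3994 in the Smad3-WT library, and by CPM Ighm was lower in the Smad3-WT cells, near the 68.4 CPM of the Smad3-WT neutrophil-like cells. Neutrophil-like cells without those genes had it in 57 of 1048 Smad3-KO (5.44%) and 100 of 1815 Smad3-WT cells (5.51%).

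Smad3-KO dendritic-like cells with Siglech, a lectin of plasmacytoid dendritic cells, held most of the Ighm and lambda constant UMIs of their class. Among Smad3-WT cells this held for the lambda constant genes but not for Ighm. In the Smad3-KO library 27 such cells had 89 UMIs of Ighm, in 26 of them (846 CPM), 35 of Iglc2 and 31 of Iglc3, with 18 of Igkc, 4 of all kappa V genes and 3 of Cd79a. The 86 dendritic-like cells without Siglech had 35 UMIs of Ighm (110 CPM) and 3 of lambda constant genes. Ighm in the cells with Siglech was thus near the 961 CPM of the B cell-like cells, with almost no V gene UMIs. In the Smad3-WT library the 4 cells with Siglech had 5 UMIs of Ighm, 16 of Iglc3, and none of Iglc2, Igkc, Cd79a or Ms4a1. The 92 without Siglech had 24 of Ighm and 0 of lambda constant genes.

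The UMIs of 1 pseudogene lay almost wholly in neutrophil-like cells. Ighv8-10, singled out after its values were seen, had 0 UMIs in 562 B cell-like Smad3-KO cells, which allows a share of up to 0.534%, and 1 UMI in each of 9 of 1076 neutrophil-like cells (0.836%, 0.383 to 1.58). In the Smad3-WT library it had 40 UMIs in 34 of 1816 neutrophil-like cells (1.87%, 1.30 to 2.61) and 1 in a macrophage-like cell. None of these cells had a barcode sequence found in both libraries. Ighv8-8, the relative printed above, had 153 of its 154 Smad3-KO UMIs in B cell-like cells and none in the Smad3-WT library.

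Other gene lists of the B cell lineage were set beside the 17.2% of all genes that were at least 2-fold higher in B cell-like cells. Of 12 B cell receptor and identity genes all 12 were at least 2-fold higher in B cell-like cells without the 6 leading ones than in the other Smad3-KO classes, with a median of 42.1-fold against 1.14-fold over all genes. Of 13 antibody-secreting genes 11 were tested and 3 were higher, namely Jchain, Mzb1 and Tnfrsf13b. Of the germinal center and switching list 4 of 8 were higher (median 2.32-fold), of the naive and marginal zone list 4 of 8 (1.79-fold), of the B-1 list 1 of 5 (0.153-fold) and of the early B list 1 of 2. The early B gene that was higher was Vpreb3, with 186 UMIs in 133 of these B cell-like cells (75.1-fold, 38.7 to 167). Cd93, the other one tested, was at 0.246-fold (0.132 to 0.422). Rag1, Rag2 and Igll1 of the same list, which act while immunoglobulin genes are first rearranged in the bone marrow, had no UMI.

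Between the libraries the immunoglobulin genes were 145-fold higher in the Smad3-KO library as a share of UMIs (133 to 158). Ighm was 16.6-fold higher (14.7 to 18.7, 12.5 without the 6 leading cells), Igkc 518-fold (353 to 794), all kappa V genes 300.4-fold (253 to 360) and lambda constant genes 329-fold. Ighm differed least among these, as 305 of its Smad3-WT UMIs were in cells of other classes. Without the 6 leading cells the ratio was 57.8 for all members (53.1 to 63.1), 146 for Igkc and 93.2 for kappa V genes, and with no quality filter it was 269 for all members. Igha, Ighg1 and Ighd had no UMI in the filtered Smad3-WT cells (Ighd had 1 before the filter), and with 3 UMIs in place of that 0, Igha was at least 1475-fold, Ighg1 at least 734-fold and Ighd at least 617-fold higher. These values rested on few cells for Igha and Ighg1, which without the 6 cells had 8 and 108 UMIs and were at least 7.92-fold and at least 107-fold higher, while Ighd was at least 624-fold higher. Among 12612 genes tested 16.4% were at least 2-fold higher in the Smad3-KO library (median ratio 0.987). Of 80 members tested 79 were (median 288), of 189 detected. Ighv8-10 was the exception, with 9 Smad3-KO and 41 Smad3-WT UMIs. Apart from it, only Ighm, Igkc, Iglc3 and Igkv3-5 had at least 20 UMIs in the Smad3-WT library. The other tested members reached that limit mainly through the Smad3-KO library, so their count was largely fixed by the limit and is no separate support. With 1 library each, the genotype and the sort or processing of each library cannot be told apart.

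The few Smad3-WT immunoglobulin UMIs in B cell-like cells were mostly those of 1 shared barcode. The Smad3-WT barcode with the sequence of leading cell 4 had 106 immunoglobulin UMIs, with 83 of Igkv3-5, 7 of Ighm, 6 of Igkc and 19 of Jchain, and 99.8% of its UMIs were in genes that the Smad3-KO barcode also held, where these genes had 1537, 275, 206 and 268. The second shared barcode had 6 UMIs of Igkv17-121 in the Smad3-WT and 47 in the Smad3-KO library. The third Smad3-WT B cell-like cell had no partner, with 45 immunoglobulin UMIs among 3660, including 18 of Igkv10-96, 16 of Igkv16-104 and 5 each of Igkc and Cd79a. Without the shared barcodes the ratio between libraries was 176-fold for all members (160 to 194), 744-fold for Igkc and 977-fold for kappa V genes.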

How the data were processed

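Members and gene lists were chosen with earlier results of these data known. Per the labels, the authors counted UMIs with Cell Ranger against mm10, and the deposited matrix holds raw UMI counts of both libraries. A second deposited table holds averages per genotype on a signal scale (UMIs over their total, times the median UMI count), with the authors' fold changes and p-values, which were not used. Its averages served only to assign the barcode suffixes to genotypes, with a largest difference of 4.91e-09 (Smad3-KO) and 3.58e-08 (Smad3-WT). A table of 13 clusters was not used.

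Barcodes with at least 200 genes, between 500 and 20000 UMIs and under 10% mitochondrial UMIs were kept. Doublets were not removed in the main values. Cells were clustered without immunoglobulin genes (2000 variable genes, 100 principal components, 15 neighbors, Louvain resolution 1, scanpy 1.11.5, igraph 0.11.9), and a class name needed at least 3 markers, each in at least 10% of cells and 2-fold above the rest. A chain was called from at least 2 UMIs and 80% of its UMIs in the cell. Ratios are quotients of CPM, with 0.5 UMIs added for the counts of genes at least 2-fold higher, among genes with at least 20 UMIs, and 3 UMIs in place of a library total of 0. Intervals (95%) are Poisson for sums, Clopper-Pearson for shares and from the exact split of UMIs for ratios (scipy 1.17.1). UMIs were thinned to 500 per cell for 1 comparison of shares. The calculations were tested on simulated data. Named genes were all constant genes, the 10 heavy and 10 kappa V genes with most UMIs, the lambda V genes, the V genes of the 10 leading cells and the listed genes, and V genes frequent over cells or named for a pattern were added after their values were seen. Alternatives were other cell filters, calls, cluster inputs, doublets left out and leading cells left out. Sequences are from GENCODE M21. Some of the listed genes are not reported here by name. A planned search for the octamer motif was not run, as the promoter table used here holds no immunoglobulin V genes.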

Additional observations from a re-analysis of the deposited data

How the results depend on the processing

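No paired analysis was possible because each genotype has 1 library and no test was made. Settings without the 6 leading cells, without barcodes in both libraries and with the light chain read from V genes were chosen after seeing the data. The immunoglobulin share of Smad3-KO UMIs (0.660%) was 0.651% with no quality filter, 0.835% without mitochondrial and ribosomal protein genes, 0.264% without the 6 leading cells and 0.632% without shared barcodes. The part of it in B cell-like cells (95.7%) was 96.2% with immunoglobulin genes kept in the clustering, 97.1% with B cells defined by at least 2 UMIs of 4 genes and 89.2% without the 6 cells. The 10 leading cells held 61.9%, and 5.48% was held by the next 10 once these were left out and 59.4% without shared barcodes. Kappa cells were 20.1% by constant and 98.9% by V genes. Light V calls (65.8% of cells) fell to 42.7% from at least 5 UMIs and were 76.7% from 60% of UMIs, and heavy V genes leading a cell went from 49 to 15 at 5 UMIs. Neutrophil-like cells with Igkc (1.58%) were 0.471% with B cells defined by 4 genes, 0.750% with possible doublets left out and 0.465% after thinning. Members detected (187) were 100 at 10 UMIs. The Smad3-KO to Smad3-WT ratio (145) was 269 with no quality filter, 272 with the filter of the study's MetaCell analysis (at least 500 UMIs, no upper limit), 57.8 without the 6 cells and 176 without shared barcodes, above 1 in each. Of 94 alternative values 73 were counted as unchanged and 21 as moved, but unchanged values could still differ visibly. Among them were 55 light V genes leading a cell from at least 5 UMIs, against 71. Another was 1.02% of neutrophil-like cells with Igkc when immunoglobulin genes were kept in the clustering, against 1.58%. Depth limits calls to cells with 2 UMIs, and with 1 library per genotype the spread between animals is unknown.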
